A study of Mus musculus with 8 samples.

Results

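Cholesterol biosynthesis was described through 8 enzyme genes, Hmgcs1, Mvk, Fdft1, Sqle, Lss, Cyp51, Dhcr7 and Ebp, which were taken as every non-control probe that carried one of these names on the array. They had 17 of the 41174 distinct probes, and all 8 were among the 23962 genes tested, through 16 of the probes. RNA came from whole testicular cells of male mice of 2 genotypes, wild type (VRK1+/+) and mutant (VRK1-/-), with 4 biological replicates each, on one-colour Agilent arrays. Vrk1 encodes a nuclear protein kinase. Age, strain, the kind of Vrk1 allele and the number of animals per sample were not given in the sources used here, and p-values measure the spread between these 8 samples.

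Cholesterol is built from acetyl-CoA by way of mevalonate and the linear hydrocarbon squalene, which is oxidised and folded into lanosterol, the first sterol. Lanosterol is then trimmed and its double bonds are moved or reduced to give cholesterol. In many cells, low sterol releases the transcription factor SREBP2 from the endoplasmic reticulum, and it raises most enzymes of the pathway together through sterol response elements in their promoters. In testis, Leydig cells make androgens from cholesterol, and germ cells make meiosis-activating sterols, which are products of the lanosterol demethylase Cyp51 and of the step after it.

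Promoter sequence was matched in the RefSeq table (GRCm38.p6) for 6 of the 8 genes, all but Fdft1 and Sqle. The 250 bases before the start are shown for Hmgcs1 and Cyp51, whose windows held the letters TCACCNCA of a sterol response element core, printed in capitals, and for Ebp, the member with the highest mutant to wild type ratio, whose window did not hold them. The windows lie at chr13:119690101-119690350 on the plus strand for Hmgcs1, at chr5:4104698-4104947 on the minus strand for Cyp51 and at chrX:8193513-8193762 on the minus strand for Ebp.
Hmgcs1: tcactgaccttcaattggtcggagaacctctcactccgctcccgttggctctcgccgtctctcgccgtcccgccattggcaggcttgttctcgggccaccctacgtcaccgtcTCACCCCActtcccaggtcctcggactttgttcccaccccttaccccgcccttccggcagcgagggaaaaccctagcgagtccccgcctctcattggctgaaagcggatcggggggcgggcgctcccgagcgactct
Cyp51: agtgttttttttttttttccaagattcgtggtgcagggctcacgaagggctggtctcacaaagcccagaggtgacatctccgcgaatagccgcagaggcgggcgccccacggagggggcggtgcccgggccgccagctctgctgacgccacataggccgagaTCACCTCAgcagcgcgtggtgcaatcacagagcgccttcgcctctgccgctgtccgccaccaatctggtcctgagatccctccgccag
Ebp: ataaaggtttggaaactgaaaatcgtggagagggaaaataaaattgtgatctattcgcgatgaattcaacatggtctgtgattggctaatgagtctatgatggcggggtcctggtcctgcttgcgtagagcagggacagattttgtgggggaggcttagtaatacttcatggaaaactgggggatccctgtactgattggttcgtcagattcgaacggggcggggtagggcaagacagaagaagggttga

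The first letter of the core lay 137 bases before the start in Hmgcs1 and 88 bases before it in Cyp51. Searched on both strands, TCACCNCA was present in 2 of the 8 windows of the 6 members (Dhcr7 has 3 windows) and in 3.61% of the 32817 promoters of the table. A CCAAT box (CCAAT), the site of the factor NF-Y, was present in 6 of the 8 windows and in 33.8% of all promoters, and a GC box (GGGCGG), the site of the factor Sp1, in 7 of 8 and 32.7% of all. Each of the 6 members had both in at least 1 window. A cyclic AMP response element (TGACGTCA), the site of the germ cell factor CREM and its relatives, was present in 0 of 8 windows and in 1.55% of all promoters. None of the 4 motifs contains another, and a match is only a match of letters.

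The arrays gave each probe's signal, which is expressed here as a log2 level: the log2 of the signal over the 75th percentile of its array, so that 0 is that percentile. Between 73.2 and 77.5% of the non-control spots were well above background on the wild type arrays and between 83.3 and 86.5% on the mutant arrays, and no spot was saturated. The wild type arrays shared 1 slide and 1 scan and the mutant arrays another, so genotype, slide and scan cannot be told apart in any result given here. Vrk1 itself was 4.78-fold lower in the mutant (adjusted p = 1.56e-04, limma). Germ cell markers were measured on all arrays, as whole testis should give. The summed signal of 6 spermatocyte markers was 439 to 484 times the 75th percentile in wild type and 311 to 398 times in mutant, and that of 6 round spermatid markers 138 to 168 against 82.3 to 123. Sertoli and Leydig cell markers ran the other way. The sum of 12 Sertoli cell markers was 65.5 to 98.5 in wild type and 139 to 211 in mutant, with 10 of 12 genes higher, and that of 6 Leydig cell markers was 74.0 to 132 against 142 to 242, with 3 of 6 higher. Of all genes tested, 22.2% were higher (limma, adjusted p under 0.05). Mutant 1 and 4 stood apart in epididymal transcripts. The 3 tested epididymal genes, Crisp1, Spink8 and Cd52, summed to 0.269 to 0.587 in wild type and to 30.1, 1.52, 1.02 and 19.2 in mutant samples 1 to 4, and of the other 4 listed, Lcn8 was well above background on no array and Adam7, Lcn5 and Defb42 on 0 wild type arrays and on 3, 1 and 2 mutant arrays. The 4 adipocyte markers summed to 6.78 and 8.76 in wild type 3 and 4 and to 5.36 and 5.4 in mutant 1 and 4, against 2.21 to 2.77 in the other samples. This came from Fabp4 and Cfd. Adipoq did not follow it, with log2 levels of 1.01, 0.68, 0.90 and 0.46 in wild type and 0.90, 0.53, 0.18 and -0.06 in mutant. Its level was the lowest of each genotype in wild type 4 and mutant 4, but the highest of the mutant samples in mutant 1. Plin1 was the highest of its genotype in wild type 4 (-0.09) and mutant 4 (-0.12), with mutant 1 next (-0.62). It was not raised in wild type 3 (-1.13). The part of these shifts in the enzyme differences was not tested, and in such bulk RNA fewer cells of a type and less RNA per cell cannot be told apart.

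The 8 enzymes did not move as a block. By the brightest probe of each gene, Ebp and Lss rose in the mutant, Fdft1, Sqle and Cyp51 fell, and Hmgcs1, Mvk and Dhcr7 did not pass. The test was limma over all genes, two-sided, with a Benjamini-Hochberg adjusted p under 0.05. Thus 2 of 8 were higher, beside 22.2% of all genes tested, and 3 of 8 were lower, beside 13.1%. In either direction 5 of 8 passed, beside 35.3% of all genes. The median log2 difference was 0.31 over the members and 0.04 over all genes. The same 5 genes were those whose 4 mutant arrays lay wholly above or below the 4 wild type arrays, which happened in 37.1% of all genes (mutant above in 21.9%, below in 15.2%). The calls depended on normalization and probe. With quantile, cyclic loess and normexp 0 members were lower, beside 2627, 2230 and 2696 of all genes. Members higher were 3, 3 and 2, beside 3487, 3609 and 1873 genes. By the mean over probes, Lss (adjusted p = 0.117) and Cyp51 (adjusted p = 0.812) did not pass. Of the 16 tested probes 3 were higher and 4 lower, or 7 in either direction, beside 21.2%, 10.8% and 32.1% of all probes. The sign of a difference moved with signal over the whole array. Of genes with a mean log2 level under 0, 27.7% were higher and 6.31% lower, of genes from 0 to 2, 16.9% and 17.8%, of genes from 2 to 4, 8.99% and 30.6%, and of genes at 4 or above, 2.89% were higher and 40.5% lower.

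**Figure D1:**
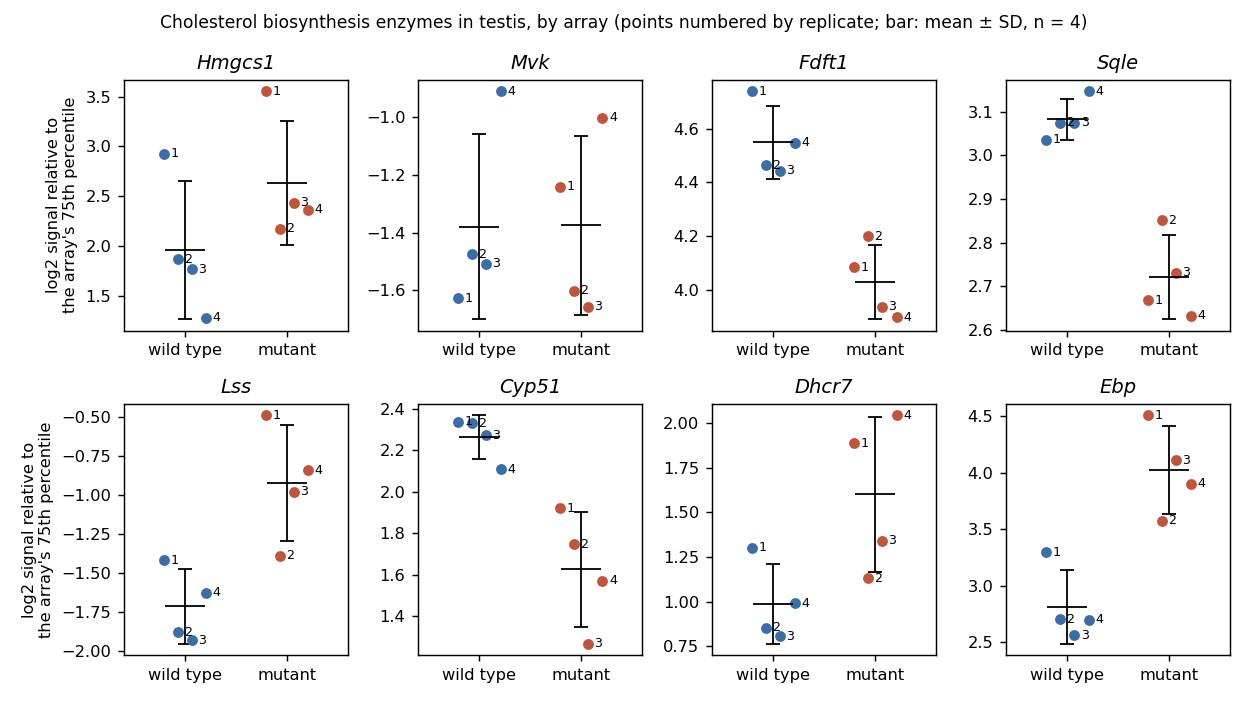
Log2 level (y axis, 0 being the 75th percentile of an array) of the 8 enzymes in the 4 wild type and 4 mutant samples, numbered by replicate, with mean and SD as bars. The mutant samples lie wholly above wild type for Lss and Ebp and wholly below it for Fdft1, Sqle and Cyp51.

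Hmgcs1 encodes the cytosolic HMG-CoA synthase, which acts early in the mevalonate route. The log2 levels of its brightest probe, A_51_P146941, which the array files place on an unplaced contig (mm7), were 2.93, 1.87, 1.77 and 1.28 in wild type samples 1 to 4 and 3.55, 2.18, 2.44 and 2.37 in mutant samples 1 to 4. Sample 1 was the highest of each genotype, and wild type 1 stood above 3 of the mutant samples. The difference was 0.67 (SE 0.38, adjusted p = 0.189). The Leydig marker Insl3 was also highest in sample 1 of each genotype (6.75 and 7.65), whereas Cyp11a1, Cyp17a1 and Hsd17b3 were highest in sample 4 of each. Star was highest in wild type 1 (1.81) and mutant 4 (1.99), and Hsd3b1 in wild type 1 (2.67) and mutant 3 (3.96). The part of these Leydig markers in the Hmgcs1 level was not tested. Without wild type 1 the Hmgcs1 difference was 0.99 (adjusted p = 0.0393), the only 1 of the 8 fits leaving out 1 sample that passed. Without mutant 1 it was 0.36 (adjusted p = 0.433). The mean over its tested probes differed by 0.13 (adjusted p = 0.607). A second probe, A_52_P388072, had the opposite sign, -0.41 (SE 0.19, adjusted p = 0.110), with mutant levels of -0.44, 0.0075, -0.44 and -0.27 and wild type levels of -0.25, 0.38, 0.40 and -0.0033. A further probe, A_52_P119039, was well above background on 0 wild type and 3 mutant arrays and was not tested.

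Mvk encodes mevalonate kinase, which puts the first phosphate on mevalonate. The log2 levels of its brightest probe, A_52_P569067 on chromosome 5 (mm7, 113677760 to 113680707, plus strand), were -1.63, -1.47, -1.51 and -0.91 in wild type and -1.24, -1.60, -1.66 and -1.0 in mutant, and the ranges coincided. The difference was 0.0049 (SE 0.21, 95% interval -0.46 to 0.47, adjusted p = 0.986). The interval leaves room for a change of that size in either direction. A second probe, A_51_P169527, differed by -0.10 (adjusted p = 0.726).

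Fdft1 encodes squalene synthase, the first enzyme whose product can only become sterol. It fell 1.43-fold in the mutant. Its levels were 4.74, 4.46, 4.44 and 4.55 in wild type and 4.08, 4.20, 3.94 and 3.90 in mutant, and every mutant sample lay below every wild type sample. The log2 difference was -0.52 (SE 0.13, adjusted p = 0.0171). This probe, A_51_P485946, lies on the minus strand of chromosome 14 (array coordinates, mm7, 58010811 to 58015051) and spans 4241 bases of genome with 60 bases, so it crosses at least 1 intron and reads spliced RNA.
A_51_P485946: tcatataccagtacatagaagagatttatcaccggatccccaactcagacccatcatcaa
The median difference of all genes at a log2 level of 4 or above was -0.45, close to the value of Fdft1. With quantile normalization the Fdft1 difference was -0.18 (adjusted p = 0.322), and without mutant 3 it was -0.49 (adjusted p = 0.0517). The other probe, A_52_P136138, was well above background on only 2 of 4 wild type arrays and differed by -0.25 (adjusted p = 0.273).

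Sqle encodes squalene epoxidase, the oxygen-dependent step that prepares squalene for ring closure. The levels of its probe, A_51_P450487 on chromosome 15 (mm7, 59397289 to 59397348, plus strand), were 3.04, 3.07, 3.07 and 3.15 in wild type and 2.67, 2.85, 2.73 and 2.63 in mutant. The wild type samples had an SD of 0.05, the lowest of the 8 genes, and all mutant samples lay below them. The difference was -0.36 (SE 0.12, adjusted p = 0.0382), or 1.29-fold lower. All genes with a level from 2 to 4 had a median of -0.36, and 30.6% of them were lower. The adjusted p was above 0.05 in 6 of the 8 fits that left out 1 sample (all but those without wild type 1 or mutant 2), where the difference ran from -0.41 to -0.33, and the difference was -0.12 with quantile normalization (adjusted p = 0.428) and -0.42 with spike-in scaling (adjusted p = 0.0849).

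Lss encodes lanosterol synthase, which folds squalene epoxide into the sterol rings. Its brightest probe, A_52_P118161 on chromosome 10 (mm7, 76212419 to 76212478, plus strand), read -1.42, -1.88, -1.93 and -1.63 in wild type and -0.49, -1.39, -0.98 and -0.84 in mutant. The groups did not overlap, though mutant 2 lay only just above wild type 1. The probe rose 1.73-fold (log2 difference 0.79, SE 0.21, adjusted p = 0.0180). All genes under a level of 0 had a median of 0.24. The other probes gave 0.36 (A_52_P168028, adjusted p = 0.249) and 0.13 (A_51_P296487, adjusted p = 0.672), and both overlapped between genotypes. In wild type A_52_P118161 had a mean of -1.71, below the -1.60 of A_51_P296487, and in mutant -0.93 against -1.47. It was thus the brightest only through the mutant samples, so the choice of probe favoured a rise. The array files also give it another transcript record than the other Lss probes. The mean of the 3 probes differed by 0.43 (adjusted p = 0.117), and the brightest probe differed by 0.72 without wild type 3 (adjusted p = 0.0508) and by 0.57 with median scaling (adjusted p = 0.0572).

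Cyp51 encodes the cytochrome P450 that removes a methyl group from the rings of lanosterol. Its 3 probes passed the test in opposite directions. The probe that represents the gene, A_52_P636752 (chromosome 5, mm7, 4089242 to 4089301, minus strand), read 2.34, 2.33, 2.27 and 2.11 in wild type and 1.92, 1.75, 1.27 and 1.57 in mutant. It was 1.55-fold lower (log2 difference -0.64, SE 0.16, adjusted p = 0.0160). A_51_P485791 (4098039 to 4098445, a span of 407 bases that crosses an intron) read 0.39, 0.44, 0.46 and 0.49 in wild type and 0.06, 0.04, -0.37 and 0.14 in mutant, a difference of -0.48 (SE 0.14, adjusted p = 0.0309). Both are shown because the fall of Cyp51 rests on them.
A_51_P485791: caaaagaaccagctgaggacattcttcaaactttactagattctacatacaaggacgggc
A_52_P636752: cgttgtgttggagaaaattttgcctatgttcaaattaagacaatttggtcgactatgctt

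The probe nearest the 3′ end of Cyp51, A_52_P164161 (4087477 to 4087536), rose instead. It read -3.07, -4.23, -4.11 and -3.42 in wild type and -1.94, -2.99, -2.68 and -2.10 in mutant, and the lowest mutant sample lay just above the highest wild type sample. The difference was 1.28 (SE 0.31, adjusted p = 0.0151). A ratio of probes of one gene on one array does not change when the whole array is multiplied by a factor. It can change where differences move with signal level, as they did over all genes. This probe was dim, with a wild type mean of -3.71. All genes under a level of 0 had a median difference of 0.24, with 27.7% higher. Those from 0 to 2 had a median of -0.19. The part of signal level in the ratios was not tested. The log2 ratio of A_52_P164161 to A_52_P636752 was -5.41, -6.56, -6.38 and -5.53 in wild type and -3.86, -4.73, -3.95 and -3.67 in mutant, a shift of 1.92, and the ratio to A_51_P485791 shifted by 1.76. Both had an exact two-sided permutation p of 0.0286, the smallest that 4 against 4 can give, and 0.0952 after adjustment over the 10 pairs of probes compared in the members. The only other pair with groups apart was that of A_52_P118161 and A_51_P296487 of Lss, with a shift of 0.66 (exact permutation p = 0.0286, adjusted 0.0952). The pairs were set up after the probe values were known, and 0 of 10 passed 0.05 after adjustment. The mean of the 3 Cyp51 probes differed by 0.05 (adjusted p = 0.812), so the direction given for the gene depends on the probe. The difference of the representative probe was -0.47 with quantile normalization (adjusted p = 0.0582).

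**Figure D2:**
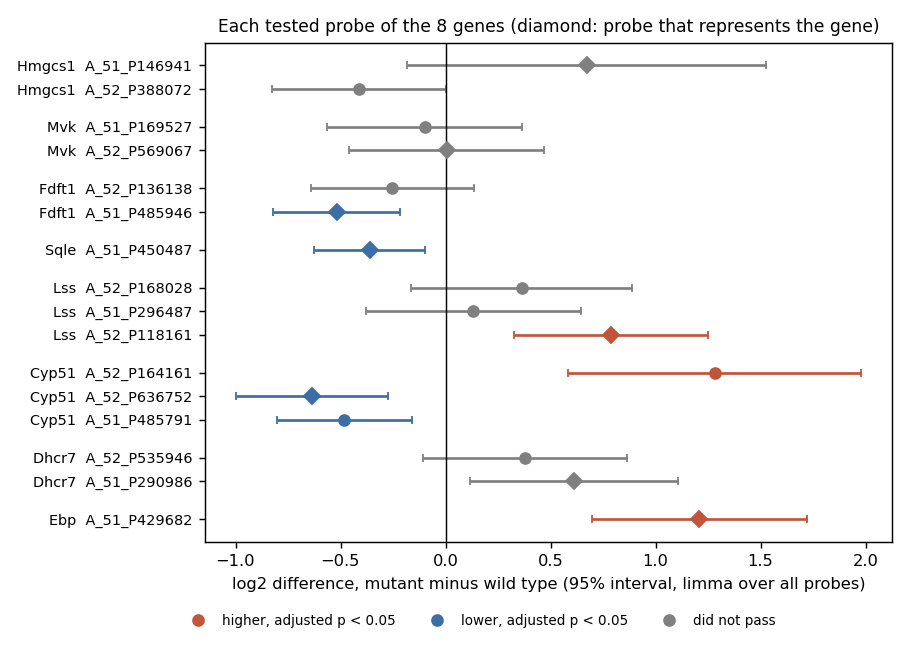
Log2 difference, mutant minus wild type, with its 95% interval (x axis) for each of the 16 tested probes (y axis, in order of mm7 position within a gene), with diamonds for the probe that represents a gene. The 3 Cyp51 probes lie on both sides of 0, at 1.28, -0.64 and -0.48.

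Ebp encodes the sterol isomerase that moves a double bond within the sterol rings. It had the largest difference of the 8 genes. Its single probe, A_51_P429682 on chromosome X (mm7, 6618487 to 6618546, minus strand), read 3.30, 2.71, 2.56 and 2.70 in wild type and 4.51, 3.58, 4.11 and 3.90 in mutant, and every mutant sample lay above every wild type sample. The rise was 2.31-fold (log2 difference 1.21, SE 0.23, adjusted p = 0.00565). Genes with a level from 2 to 4 were higher in only 8.99% of cases and had a median of -0.36. The value stayed between 1.05 and 1.37 in the 8 fits that left out 1 sample, with adjusted p-values of 0.00307 to 0.0219.

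Dhcr7 encodes the reductase that turns 7-dehydrocholesterol into cholesterol. The levels of its brightest probe, A_51_P290986 on chromosome 7 (mm7, 140275628 to 140275687, plus strand), were 1.30, 0.85, 0.81 and 0.99 in wild type and 1.89, 1.13, 1.34 and 2.04 in mutant, with mutant 2 below wild type 1. The difference of 0.61 (SE 0.22, 95% interval 0.12 to 1.11) had an adjusted p of 0.0553. It was 0.72 without wild type 1 (adjusted p = 0.0384) and 0.77 without mutant 2 (adjusted p = 0.0255). The other 6 of the 8 fits that left out 1 sample did not pass. The lowest of them was 0.46, without mutant 4 (adjusted p = 0.135). Without mutant 1 and 4 the Dhcr7 difference was 0.25 (adjusted p = 0.394). The second probe, A_52_P535946, differed by 0.38 (adjusted p = 0.197).

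The calls were recomputed without the samples that stood apart in markers of other tissues. Of the mutant samples, mutant 1, with the most epididymal signal, was the highest for Hmgcs1, Lss, Cyp51 and Ebp and mutant 4 for Mvk and Dhcr7. Wild type 1, with an epididymal sum of only 0.587, was likewise the highest wild type sample for Hmgcs1, Lss, Cyp51 and Ebp, and wild type 4 for Mvk. Without mutant 1 and 4, 0 of 8 enzymes passed the test, beside 1109 genes higher and 230 lower in all. Ebp then differed by 1.03 (adjusted p = 0.0634), Lss by 0.53 (adjusted p = 0.145), Fdft1 by -0.48 (adjusted p = 0.107), Sqle by -0.29 (adjusted p = 0.190) and Cyp51 by -0.75 (adjusted p = 0.0584), each with the sign it had in all samples. Without the 4 samples with the most Fabp4 and Cfd (wild type 3 and 4, mutant 1 and 4) 0 of 8 enzymes passed, beside 356 genes higher and 15 lower. Ebp then differed by 0.84 (adjusted p = 0.155) and Hmgcs1 by -0.09.

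**Figure D3:**
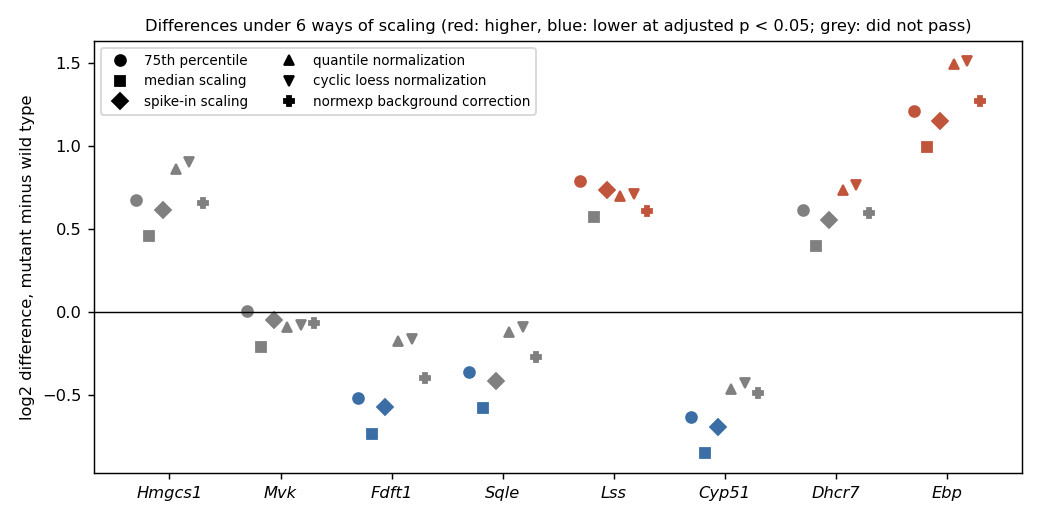
Log2 difference, mutant minus wild type (y axis), of the 8 enzymes under 6 ways of scaling or background correction (symbols), in red or blue where the adjusted p is under 0.05. Ebp is red under all 6, from 0.99 to 1.51, while Fdft1, Sqle and Cyp51 are grey under quantile and cyclic loess normalization and normexp background correction, Sqle under spike-in scaling too, and Lss under median scaling.

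Scaling by the 75th percentile gave 5321 genes higher and 3129 lower. More genes were higher than lower also with spike-in scaling (4045 and 2293), cyclic loess (3609 and 2230) and quantile normalization (3487 and 2627), and fewer with median scaling (3363 and 6816) and normexp background correction (1873 and 2696). The median difference of all genes was -0.18 with median scaling and -0.22 with normexp. Relative to it, Ebp was at 1.17 and 1.49 and Fdft1 at -0.56 and -0.18.

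The rest of the route was read from 11 further enzymes, of which 3 rose, 0 fell and 8 did not pass (at an unadjusted p under 0.05, 1 was lower), beside 22.2% of all genes higher and 13.1% lower. The higher count was 0 without wild type 2, and 1 without mutant 1 or with median scaling. It was also 0 without mutant 1 and 4, and without the 4 samples with the most Fabp4 and Cfd. Those that rose act after lanosterol. Msmo1, a methylsterol oxidase, rose 1.99-fold (log2 difference 1.00, SE 0.28, adjusted p = 0.0229), with samples of the genotypes overlapping. Tm7sf2, a sterol ring reductase, rose 1.78-fold (adjusted p = 0.0209) and Hsd17b7, a ketosterol reductase, 1.68-fold (adjusted p = 0.0194), with wild type 1 missing from the Hsd17b7 fit as an outlier spot. Idi1, the isopentenyl diphosphate isomerase, differed by -0.41 (adjusted p = 0.0567) and Nsdhl, a sterol decarboxylase, by 0.52 (adjusted p = 0.10), while 2 of its 3 other probes were higher, at 1.08 (adjusted p = 0.00590) and 0.79 (adjusted p = 0.0170). The other 6, Acat2, Pmvk, Mvd, Fdps, Lbr and Sc5d, differed by -0.23 to 0.42, and a second Sc5d probe was higher, at 0.72 (adjusted p = 0.0186).

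**Figure D4:**
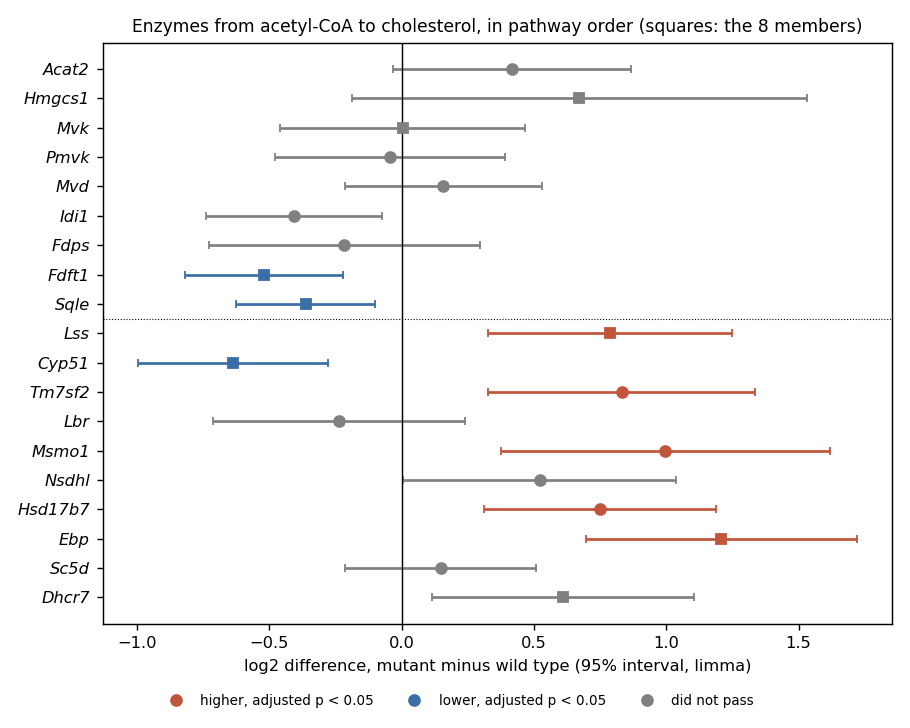
Log2 difference, mutant minus wild type, with its 95% interval (x axis) for 19 enzymes in pathway order (y axis), with squares for the 8 enzymes described here and a dotted line before lanosterol synthase. Above the line 0 of 9 genes are higher and 2 lower, and below it 5 of 10 are higher and 1 is lower.

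Set out in pathway order, the 9 enzymes up to squalene epoxide held 0 higher and 2 lower calls, with a median log2 difference of -0.04, and the 10 from lanosterol synthase on held 5 higher and 1 lower, with a median of 0.68, beside 22.2% of all genes higher and 13.1% lower. Without wild type 2, the calls of Msmo1, Tm7sf2 and Hsd17b7 were lost. This grouping was made after the values were seen, and the difference between the groups was not tested. The groups also differed in signal, with which the sign moved over all genes. Pmvk, Idi1, Fdps, Fdft1 and Sqle of the first group had a wild type mean above 2, against Cyp51 and Ebp of the second. Means under 0 were those of Acat2, Mvk and Mvd in the first and Lss, Nsdhl and Hsd17b7 in the second. All genes from 2 to 4 had a median of -0.36, and those under 0 of 0.24. The part of signal level in the split was not tested. In all 19 enzymes the median was 0.16, with 5 higher and 3 lower.

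Of 9 regulators of the pathway, 5 rose and 1 fell, beside 22.2% and 13.1% of all genes, and the median difference was 0.58. The higher count was 2 without wild type 3 or mutant 1, 3 without wild type 2, mutant 3 or mutant 4, and 3 with the mean over probes. It was 0 without mutant 1 and 4, and 1 without the 4 samples with the most Fabp4 and Cfd. Srebf1 and Srebf2, which encode the SREBP transcription factors, differed by 0.71 (adjusted p = 0.0184) and 0.58 (adjusted p = 0.0265), though the other 3 probes of Srebf2 gave -0.03, -0.15 and -0.25 and did not pass. Scap, the escort and sterol sensor of SREBP, rose 1.57-fold (adjusted p = 0.0200). Mbtps1, the first protease that cuts SREBP, rose 1.6-fold (adjusted p = 0.0124), with its other probes at -0.07 and 0.80, neither of which passed. Mbtps2, the second protease, was 1.03 higher (adjusted p = 0.00972) but well above background on only 2 of 4 wild type arrays, and was at -0.14 with normexp. Insig1, which holds SCAP and SREBP back and is itself an SREBP target, fell 1.39-fold (adjusted p = 0.0474), and its other probe stood at 0.33 (adjusted p = 0.0834). Insig1 kept its call in only 1 of the 8 fits that left out 1 sample (that without mutant 2), and the mean over its probes differed by -0.07 (adjusted p = 0.614). With quantile normalization it differed by -0.47 (adjusted p = 0.0620), and with median scaling 2 of the 9 regulators were higher and 2 lower. Insig2, Nr1h2 and Nr1h3 did not pass, at -0.09, -0.13 and -0.27.

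Of 14 genes of sterol uptake, efflux and storage, 7 rose and 0 fell (0 were lower at an unadjusted p under 0.05 too), beside 22.2% and 13.1% of all genes, and the median difference was 0.50. With normexp 4 were higher. Without mutant 1 and 4 the higher count was 2, beside 1109 of all genes. It was 0 without the 4 samples with the most Fabp4 and Cfd, beside 356. Among efflux genes, Abca1, the cholesterol exporter, rose 2.57-fold (adjusted p = 0.00368), Abcg1 2.01-fold (adjusted p = 0.0228) and the lipoprotein gene Apoe 2.17-fold (adjusted p = 0.0118). Ch25h and Cyp27a1, which make oxysterols, rose 3.06-fold (adjusted p = 0.00733) and 2.12-fold (adjusted p = 0.00448). Mylip, a ubiquitin ligase induced by sterol, rose 1.86-fold (adjusted p = 0.00258) and the lysosomal carrier Npc2 1.45-fold (adjusted p = 0.0330). The macrophage marker sum was 2.5 to 3.26 in wild type and 3.06 to 6.13 in mutant, with 4 of 6 genes higher, beside 22.2% of all genes. The part of macrophage signal in the rise of the efflux genes was not tested.

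**Figure D5:**
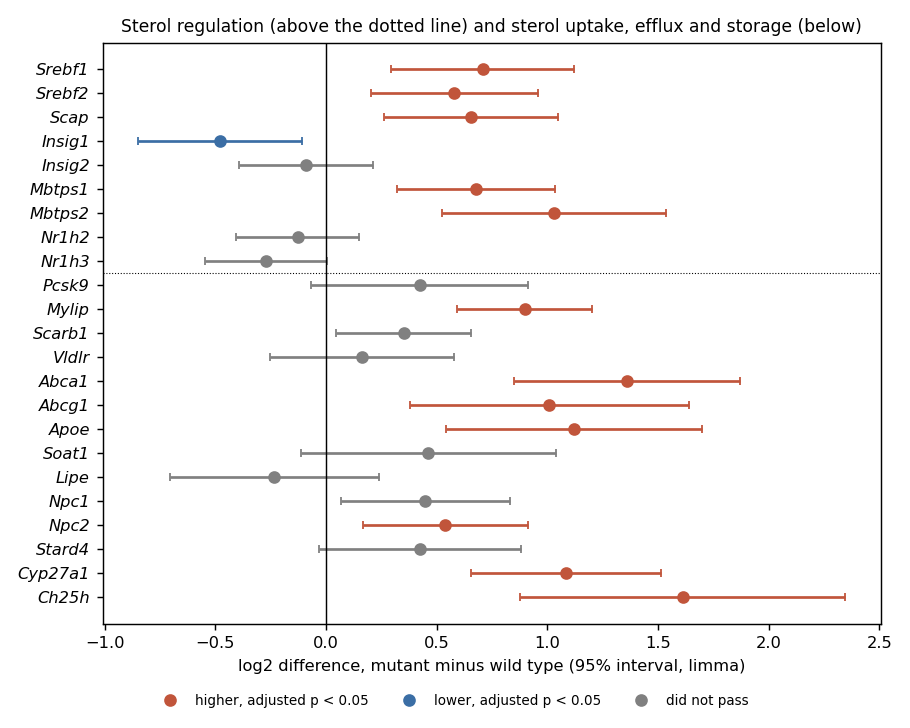
Log2 difference, mutant minus wild type, with its 95% interval (x axis) for 9 genes of sterol regulation and 14 of sterol uptake, efflux and storage (y axis). Of these, 5 and 7 are higher, and 1 and 0 are lower.

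Across the 8 arrays each enzyme had its own nearest pattern among all genes tested, measured as the root mean square difference of log2 levels centred on their means. The nearest gene was Ddr2 for Hmgcs1 (0.16), Gm377 for Mvk (0.082), Ap2s1 for Fdft1 (0.055) and 1500011B03Rik for Sqle (0.038). It was Aldh5a1 for Lss (0.055), Slc35f4 for Cyp51 (0.050), Asb11 for Dhcr7 (0.089) and Smarca1 for Ebp (0.074). In no case was the nearest gene another enzyme of the pathway. Only the nearest of all genes with values on every array was kept, so a pathway match was unlikely in advance. Its absence says nothing on whether the enzymes share a pattern. The summed signal of the 8 enzymes was 46.7 to 60.6 times the 75th percentile in wild type and 48.3 to 66.4 times in mutant, and it overlapped, with sample 1 the highest of each genotype.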

How the data were processed

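The arrays measured RNA of whole testicular cells, and samples were grouped by the submitters' labels. The deposited intensity is a processed spot signal. Background subtraction and detrending within the array were done before deposit, with no scaling between arrays, per the file headers, and per the submitters' processing notes the software was Agilent Feature Extraction 9.5.3.1. The series' value table held the same intensity on a linear scale. Each array has 43379 non-control spots, and the number of arrays limits the precision.

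Signals were divided by the array's 75th percentile, raised to a floor of 0.0144 of it and converted to log2. The design as first written had no floor, which negative signals made necessary. Outlier spots were left out and repeated probes averaged. A probe was kept if 4 of 8 arrays had it well above background and each group had 3 values (33718 probes), and the brightest kept probe represented its gene. A limma model (version 3.58.1, R 4.3.3) with genotype as its sole term (two-sided moderated test, Benjamini-Hochberg, threshold 0.05) was fitted over all genes, and over all probes for single probes, and tested on simulated data. Non-representative probes carry p-values from the fit over probes. Ratios of probes were tested by exact permutation. Probe names and coordinates (mm7) are those of the array files. Named were the 8 members with all probes, the listed genes of synthesis, regulation and transport, and for each member the gene of nearest pattern. Some genes of these lists are not reported here and enter no list count. Members and lists were chosen with earlier results of these data known. The alternatives were other scalings (median, spike-in, quantile, cyclic loess), normexp, the series' value table, filters, floor, array weights, the mean over probes, a replicate block and samples left out. Of these, the set of 4 adipocyte-marker samples was added after seeing the data.

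Results for every list not given in the report were as follows. Of 6 spermatogonial markers 1 was higher and 0 lower, of 6 spermatocyte markers 0 and 4, of 6 round spermatid markers 0 and 3, of 6 elongating spermatid markers 0 and 1, of 3 endothelial markers 2 and 0, of 2 myoid markers 0 and 0, and of 4 adipocyte markers 0 and 0. These counts stand beside 22.2% of all genes higher and 13.1% lower.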

Additional observations from a re-analysis of the deposited data

Results flagged for a closer look

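Among 100 groups taken up to look for a sample far from the others, 1 stood out. The wild type groups of Fdps and Hsd17b7 lacked wild type 1 and were not examined, since the rule needs 4 values. The Srebf1 probe had a log2 level of 1.77 in wild type 1, against 1.48 in the next wild type sample and 1.42 in the lowest. The gap was 0.833 of the group's range, above Dixon's 95% critical value for 4 samples, and chance alone flags about 5% of such groups.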

How the results depend on the processing

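Against 2 members higher and 3 lower, and 5321 genes higher and 3129 lower in all, the alternatives gave the following. With median scaling 1 member was higher, beside 3363 genes higher and 6816 lower. With array weights 4 members were higher and 3 lower, beside 7035 and 6209 genes. With the mean over all probes 1 member was higher, and Cyp51 turned to 0.055. With quantile normalization, cyclic loess and normexp 0 members were lower, beside 2627, 2230 and 2696 genes lower. Genes higher numbered 3487, 3609 and 1873, and Mbtps2 turned to -0.14 with normexp. The cause of these changes was not tested. Without mutant 1 and 4, 0 members were higher and 0 lower, beside 1109 and 230 genes, and without the 4 samples richest in Fabp4 and Cfd 0 and 0, beside 356 and 15. Both have fewer samples. Leaving out 1 sample gave 1 to 4 members higher and 1 to 3 lower, and 3714 to 5395 genes higher and 1582 to 3742 lower.

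With the replicate block 4 members were higher and 3 lower, beside 6622 and 4675 genes, the members gained being Hmgcs1 (adjusted p = 0.0117) and Dhcr7 (adjusted p = 0.0166). Samples of the same number deviated together with correlations of 0.28, 0.24, 0.081 and 0.59, and those of unlike number had -0.33 to 0.19. Each mutant sample correlated best with the wild type sample of its number, though wild type 3 correlated best with mutant 2 (0.19). The labels do not call the numbers pairs, so the main fit did not use them, and whether they are pairs is not known. Ebp passed in 20 of 22 alternatives, Lss in 17, Fdft1 and Cyp51 in 16, Sqle in 10, Dhcr7 in 7, Hmgcs1 in 3 and Mvk in 0. The 22 are not separate checks. The fit on the series' value table had the same signals and repeated the main fit. The filter and floor settings left the difference of each member unchanged. For Ebp and Sqle the mean over probes was that of the same single probe. Probes at the floor limit what dim genes can show.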
